A study of Homo sapiens with 6 samples.

Results

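The enzymes described here make ribose phosphates and NADPH: PGLS and PGD of the oxidative branch of the pentose phosphate pathway, RPIA, RPE, TKT and TALDO1 of its reversible branch, and ME1, IDH1 and IDH2, which supply NADPH outside the pathway. The 9 genes were chosen by name for these roles, with earlier results of these data known, as were the gene lists further below. Shares of all tested probe sets or genes beside member and list counts are therefore given for description and are no test. Every probe set that the platform annotation assigns to 1 of these genes alone was taken. This gave 24 of the 54675 probe sets on the array, and 19 of the 24 had a mean log2 value above 4 over all arrays, as did 22085 probe sets in all, and were tested. A probe set is a group of short probes on the array that together measure 1 transcript region, and its values here are on the log2 scale. The RNA was that of Capan-1, a line grown from a human pancreatic cancer, hybridised to 6 Affymetrix arrays. A small interfering RNA (siRNA) that targets GNE was used for 3 arrays (siGNE), which the labels call a knock-down, and allStar control siRNA for the other 3 (control). How many siRNAs against GNE were used is not stated in the labels. GNE encodes the epimerase and kinase that begins sialic acid synthesis. All cells, controls included, were transfected 2 times with an interval of 48 h and harvested 72 h after the second transfection. The titles number the arrays 1 to 3 in each group, and 2 arrays with 1 number form a pair here.

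The oxidative branch of the pentose phosphate pathway turns a glucose phosphate into ribulose 5-phosphate and reduces NADP to NADPH on the way. The reversible branch converts pentose phosphates into one another and into glycolytic intermediates, so that ribose for nucleotides and NADPH for reductive synthesis and antioxidant enzymes can be made in different proportions. Cytosolic malic enzyme and the NADP-dependent isocitrate dehydrogenases add to the NADPH of the cytosol and the mitochondria, and several of these genes are known targets of NRF2, which switches on genes against oxidative stress.

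GNE, the targeted gene, had log2 values of 8.39, 9.86 and 9.57 in siGNE arrays 1, 2 and 3, against 11.12, 11.47 and 10.86 in the control arrays. All siGNE values lay below all control values, and the difference of -1.88 left 27.2% of the control level (limma adjusted p 0.131 without the replicate block, explained below, and 0.0348 with it). The RNA came from whole cultures, so fewer cells with a transcript and less of it per cell cannot be told apart, here and in all results. All 10 ductal epithelium markers were above 4, the 5 endothelial and 3 acinar markers with values were all at or under 3 on average, and 1 of 7 fibroblast markers (COL1A1, 8.74 in siGNE and 8.03 in control arrays) and 1 of 5 leukocyte markers (LYZ) were above 4. The other 6 fibroblast markers, COL1A2 among them at 2.45 in siGNE and 2.44 in control arrays, were near background, and the log2 of the list's summed level ran from 8.36 to 9.32 over the siGNE arrays and from 7.77 to 8.92 over the control arrays. With the block described next, COL1A1 rose by 0.71 (limma adjusted p 0.0441), and its part in the results below was not tested. The array medians lay between 2.96 and 3.02, so values near 3 are close to background. The replicate block is a limma fit that takes the pair number into account. Without it 0 of the 19 member probe sets passed at an adjusted p under 0.05, where 0.0408% of all tested probe sets passed as higher and 0% as lower. In that fit 7 of the 19 had an unadjusted p under 0.05, as did 3223 of all 22085 tested probe sets. With the block 3 member probe sets rose and 2 fell, against 4.13% of all tested probe sets that rose and 5.35% that fell. The rises were those of ME1 and of the dimmest TKT probe set, and the falls those of IDH2. Counted by 1 probe set per gene, 1 of the 9 genes rose and 1 fell with the block, against 4.12% and 5.74% of all tested genes.

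ME1 rose, IDH2 fell, and of the pentose phosphate enzymes only TKT had a probe set that passed, in the fit with the replicate block. Counted by 1 probe set per gene, the one with the highest mean, 6 of the 9 genes were higher in siGNE in all 3 pairs, 2 were lower in all 3 and 1 was mixed, while 27% of all 10862 tested genes were higher in all 3 pairs and 30.8% lower. Of the 19 probe sets, 13 were higher in all 3 pairs and 4 lower, against 26.5% and 29.1% of all tested probe sets. The median log2 difference over the 9 genes was 0.24, beside -0.02 over all tested genes. All 3 siGNE values lay above all 3 control values for 7 of the 19 probe sets and below them for 1, against 8.39% and 12% of all tested probe sets. By gene these counts were 4 and 1 of 9, against 9.38% and 13.8% of all tested genes.

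**Figure D1:**
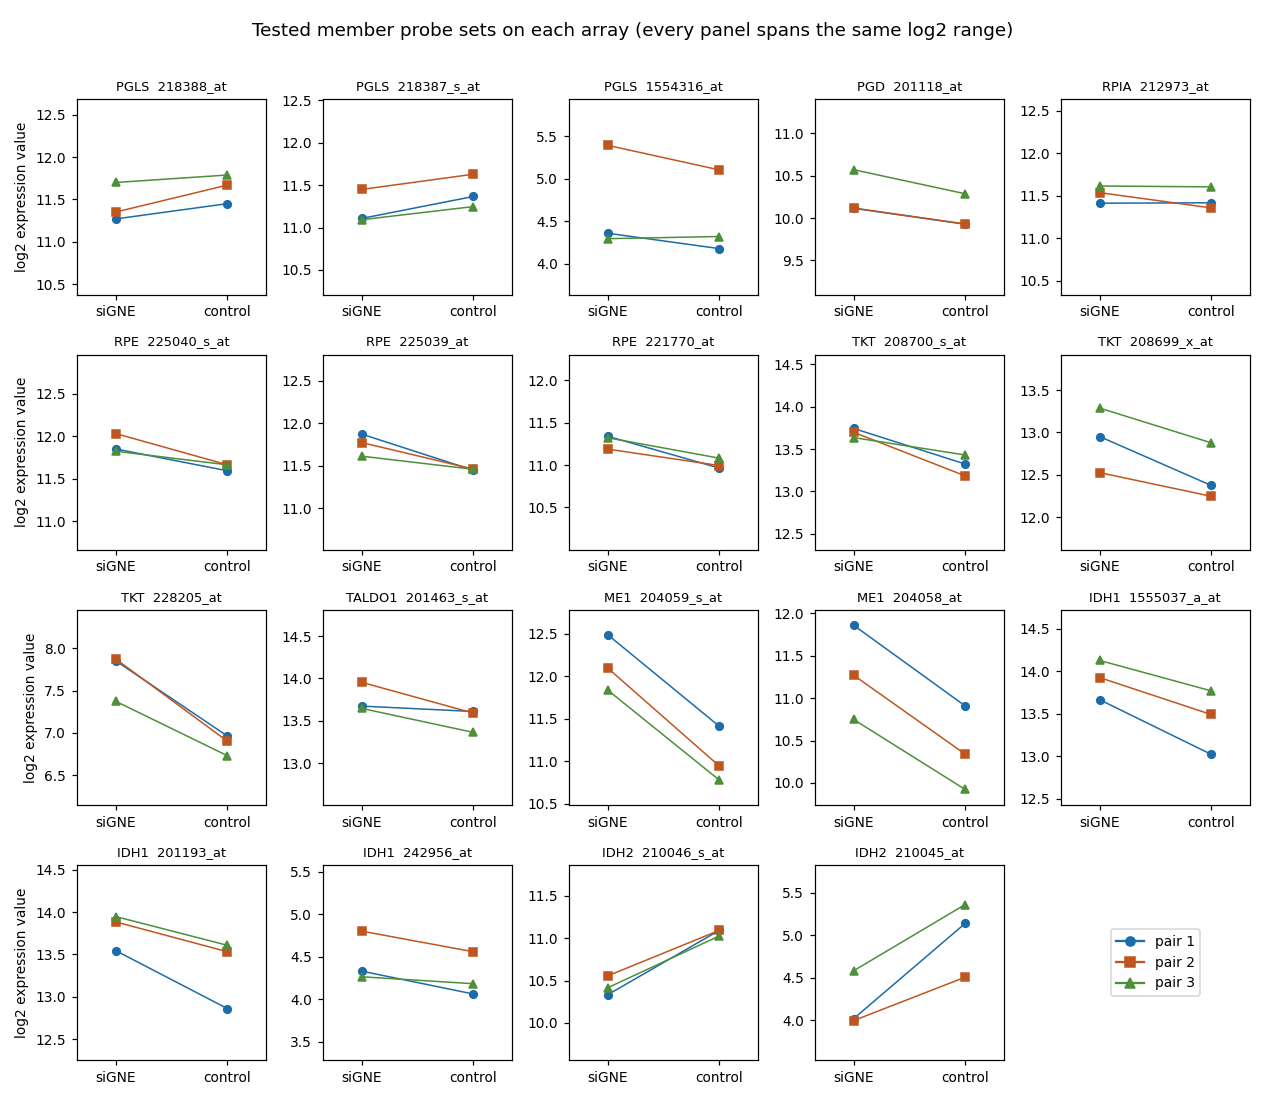
Log2 expression value of each tested member probe set on each array, with siGNE left and control right in every panel and lines joining the 2 arrays of a pair. Each panel spans the same log2 range, so slopes can be compared between panels. The ME1 lines run nearly parallel, at 12.49, 12.10 and 11.84 in siGNE and 11.41, 10.94 and 10.78 in control arrays for the brighter ME1 probe set, and the IDH2 lines slope the other way.

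PGLS, 6-phosphogluconolactonase, hydrolyses the lactone made in the first oxidative step. Its brightest probe set read 11.27, 11.35 and 11.70 in siGNE arrays, against 11.45, 11.67 and 11.79 in control arrays. Each siGNE array was below its paired control, but the groups overlapped. The difference was -0.20 (95% interval -0.43 to 0.04 with the block), and a second bright probe set gave the same size, -0.20 (-0.41 to 0.02). A dim PGLS probe set was at 4.68 in siGNE and 4.54 in control arrays, a difference of 0.15 (-0.11 to 0.41), and did not follow the brighter ones. The limma adjusted p of the 3 probe sets lay between 0.186 and 0.371 with the block. PGLS therefore has no call in either direction.

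PGD, 6-phosphogluconate dehydrogenase, makes NADPH and ribulose 5-phosphate in the last oxidative step. Its bright probe set read 10.12, 10.12 and 10.57 in siGNE arrays, against 9.93, 9.93 and 10.29 in control arrays. Array 3 was the highest in both groups, the groups overlapped, and every pair was higher in siGNE, by 0.19, 0.19 and 0.28. The difference of 0.22 (95% interval 0.00 to 0.44 with the block), or 1.16-fold, did not pass (limma adjusted p 0.155 with the block and 0.679 without it).

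RPIA, the isomerase that makes ribose 5-phosphate, read 11.41, 11.54 and 11.61 in siGNE arrays, against 11.42, 11.36 and 11.60 in control arrays. The pairs went in different directions, and the difference was 0.06 (95% interval -0.17 to 0.29 with the block, limma adjusted p 0.678). RPE, the epimerase that makes xylulose 5-phosphate from the same substrate, was measured by 3 bright probe sets. The one with the highest difference read 11.87, 11.77 and 11.61 in siGNE arrays, against 11.45, 11.46 and 11.46 in control arrays. The control values had an SD of 0.01 (n = 3) and all siGNE values were above them. The differences of the 3 RPE probe sets were 0.26, 0.30 and 0.27, or at most 1.23-fold, and the siGNE arrays lay above the control arrays in each of them. None passed (limma adjusted p 0.113 to 0.128 with the block, 0.329 to 0.376 without it). The 1 probe set annotated to both RPE and RPEL1, which the rule leaves out, differed by 0.22 with an adjusted p of 0.215 with the block.

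TKT, transketolase, links the pentose phosphates to glycolysis by moving carbon units between sugars. Its 3 probe sets were higher in siGNE in every pair but by different amounts. The dimmest of them read 7.85, 7.87 and 7.37 in siGNE arrays, against 6.96, 6.90 and 6.73 in control arrays, with no overlap. It rose by 0.83 (SE 0.10), or 1.78-fold, in the limma fit with the block (adjusted p 0.0281, against 0.128 without the block). The much brighter first probe set, with the highest mean, read 13.74, 13.70 and 13.64 in siGNE arrays, against 13.32, 13.18 and 13.43 in control arrays, also with no overlap. Its difference was 0.38 (95% interval 0.12 to 0.64), or 1.30-fold, and did not pass (limma adjusted p 0.0781 with the block). The other bright one, whose name marks it as prone to cross-hybridisation, read 12.95, 12.53 and 13.29 in siGNE arrays, against 12.38, 12.25 and 12.88 in control arrays. It differed by 0.42 (0.17 to 0.68, limma adjusted p 0.0629 with the block). The interval of the dimmest, 0.56 to 1.10, overlaps those of the others, and whether the probe sets differ was not tested.

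TALDO1, transaldolase, works beside transketolase in the reversible branch. Its probe set read 13.67, 13.95 and 13.65 in siGNE arrays, against 13.61, 13.59 and 13.36 in control arrays. All siGNE values were above all control values, by 0.06, 0.36 and 0.28 in the pairs. The difference of 0.24 (95% interval -0.02 to 0.49 with the block), or 1.18-fold, did not pass (limma adjusted p 0.184 with the block).

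ME1, cytosolic malic enzyme, converts malate to pyruvate and makes NADPH. Its brighter probe set read 12.49, 12.10 and 11.84 in siGNE arrays, against 11.41, 10.94 and 10.78 in control arrays. The lowest siGNE array stood above the highest control array, and array 1 was highest and array 3 lowest in both groups. The level thus varied by 0.33 within each group (SD, n = 3 each), while the pair differences were 1.08, 1.15 and 1.06. ME1 rose by 1.10 (SE 0.08), or 2.14-fold, in the limma fit with the block (adjusted p 0.0195), and did not pass without it (SE 0.24, adjusted p 0.133). This difference was higher than that of 99.2% of all tested probe sets. The second bright ME1 probe set read 11.86, 11.27 and 10.75 in siGNE arrays, against 10.91, 10.34 and 9.92 in control arrays. The groups overlapped there, because siGNE array 3 was below control array 1, but the pair differences of 0.95, 0.93 and 0.82 were close to one another. It rose by 0.90 (SE 0.09), or 1.87-fold, with the block (limma adjusted p 0.0241).

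The upstream sequence of ME1 is shown because ME1 had the largest rise of the 9 genes and NRF2 binds DNA at antioxidant response elements, whose core was searched as TGACNNNGC. The 250 bases before the gene's start (RefSeq, GRCh38.p14, 5′ to 3′ on the gene's strand) hold 1 match, in capitals, which begins 137 bases before the start. The match includes TGACTCA, the letters of an AP-1 site, so both motifs overlap there.
ME1, chr6:83431052-83431301, minus strand: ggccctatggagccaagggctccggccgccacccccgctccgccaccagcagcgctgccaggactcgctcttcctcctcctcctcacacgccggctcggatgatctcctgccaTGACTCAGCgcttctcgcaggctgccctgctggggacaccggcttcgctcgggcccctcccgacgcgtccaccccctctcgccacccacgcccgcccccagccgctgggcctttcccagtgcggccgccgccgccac
The core was also found, on either strand, before IDH1, PGD and RPE, which are shown with 10 bases on each side of the match in capitals.
IDH1, chr2:208255196-208255224, minus strand: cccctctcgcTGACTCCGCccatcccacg
PGD, chr1:10398853-10398881, plus strand: cctcgccgggGCAATGTCAtctaggtgct
RPE, chr2:210002477-210002505, plus strand: ggcggacggcTGACAGCGCcccaccccag
In PGD the core lies on the opposite strand to the gene, so the capitals show its reverse complement. In all, 4 of the 10 windows of the 9 genes (IDH1 has 2) had the core, against 10.9% of the 35116 windows of the same length before all genes in the table. The AP-1 letters were in 1 of the 10 windows, against 4.2% of all windows. Of the 4 genes with the core only ME1 had a probe set that passed with the block, and the windows of TKT and IDH2 do not hold it. Neither TTGCATCA, a form of the amino acid response element, nor CACGTG was found in the windows of the 9 genes, and 0.772% and 6.34% of all windows hold them. The letters are a description of the sequence and no binding was measured.

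IDH1, the NADP-dependent isocitrate dehydrogenase of the cytosol and peroxisomes, had 2 bright probe sets. The brighter read 13.67, 13.93 and 14.13 in siGNE arrays, against 13.02, 13.49 and 13.77 in control arrays. The groups overlapped, and every pair was higher in siGNE, by 0.64, 0.44 and 0.36. The difference of 0.48 (95% interval 0.22 to 0.73 with the block), or 1.39-fold, lay just outside the call (limma adjusted p 0.0505 with the block, 0.409 without it). The other bright probe set read 13.54, 13.88 and 13.95 in siGNE arrays, against 12.86, 13.53 and 13.61 in control arrays, and gave 0.46 (0.18 to 0.74, limma adjusted p 0.0646 with the block). A dim IDH1 probe set was near background, at 4.47 in siGNE and 4.27 in control arrays.

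IDH2, the mitochondrial NADP-dependent isocitrate dehydrogenase, was the only one of the 9 genes with a fall that passed. Its bright probe set read 10.33, 10.56 and 10.42 in siGNE arrays, against 11.09, 11.09 and 11.02 in control arrays. All siGNE values were below all control values, and the control arrays had an SD of 0.04 (n = 3). IDH2 fell by 0.63 (SE 0.09) on the log2 scale, to 64.4% of the control level, in the limma fit with the block (adjusted p 0.0320, against 0.110 without it). A dim IDH2 probe set read 4.02, 3.99 and 4.58 in siGNE arrays, against 5.14, 4.51 and 5.36 in control arrays. It fell by 0.80 (SE 0.14) with the block (limma adjusted p 0.0406). The groups overlapped, and siGNE arrays 1 and 2 lay at the limit of 4, close to background.

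The IDH2 upstream window is shown as that of the member that fell. Sequence before any other IDH2 start was not searched, and which start these cells use was not measured. The window shown holds none of the 4 motifs searched, and 48.4% of its bases are G or C, against 74% for ME1 and a median of 58% over all windows.
IDH2, chr15:90100622-90100871, minus strand: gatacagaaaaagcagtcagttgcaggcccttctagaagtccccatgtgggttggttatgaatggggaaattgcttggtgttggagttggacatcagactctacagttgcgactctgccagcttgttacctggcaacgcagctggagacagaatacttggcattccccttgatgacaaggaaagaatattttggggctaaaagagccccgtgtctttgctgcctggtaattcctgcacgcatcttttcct

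IDH1 and IDH2 catalyse the same reaction in different compartments, and their differences had opposite signs, though that of IDH1 did not pass. Within an array, the log2 ratio of the IDH1 value to the IDH2 value was 3.33, 3.37 and 3.71 in siGNE arrays, against 1.93, 2.40 and 2.75 in control arrays. The ratio was higher in siGNE in all 3 pairs, with no overlap, by 1.11 on average. A two-sided exact permutation test, which moved arrays between the groups without regard to the pairs, returned p = 0.1. With 3 arrays a group that is the lowest value this test can give. This ratio was picked after the values were seen, and it compares changes, not the amounts of the 2 transcripts.

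**Figure D2:**
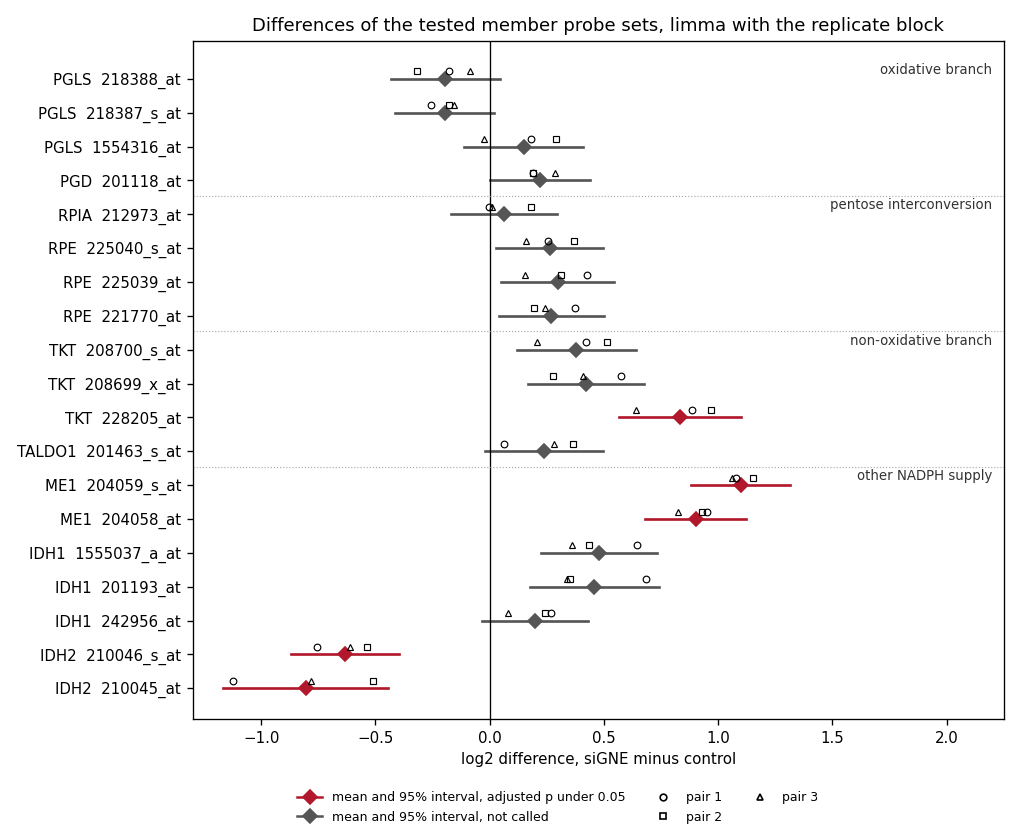
Log2 difference, siGNE minus control, of the 19 tested member probe sets, grouped by role. Diamonds and bars give the mean and its 95% interval from the limma fit with the replicate block, red where the adjusted p was under 0.05, and open symbols give the 3 pairs. The ME1 probe sets lie at 1.10 and 0.90, the IDH2 probe sets at -0.63 and -0.80, and the others between -0.20 and 0.48 but for the dimmest TKT probe set at 0.83.

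The 5 member probe sets left out of the test (1 of PGLS, 2 of PGD, 1 of RPE and 1 of ME1) had means between 2.11 and 2.88 in siGNE arrays and between 2.11 and 2.88 in control arrays. They lay at background in both groups and their genes were measured by other probe sets. The ME1 probe set among them read 2.39 in both groups while the other ME1 probe sets rose.

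Among other enzymes of pentose and ribose phosphates, 11 of 16 listed genes were tested. The limma fit with the block called 0 higher and 1 lower, where 4.12% of all tested genes rose and 5.74% fell. Without the block 2 had an unadjusted limma p under 0.05, as did 1757 of all 10862 tested genes. PRPS2, which makes phosphoribosyl pyrophosphate for nucleotides from ribose 5-phosphate, read 9.99, 10.44 and 10.45 in siGNE arrays, against 10.86, 10.89 and 10.95 in control arrays. It fell by 0.61 (SE 0.12), to 0.657 of the control level, in the limma fit with the block (adjusted p 0.0460). H6PD, which runs the first oxidative steps inside the endoplasmic reticulum, differed by -0.41, TIGAR, which lowers fructose bisphosphate levels, by 0.21 and PRPS1 by -0.18, and none of these passed (limma adjusted p 0.136 to 0.276 with the block). The median difference over the list was -0.12, beside 0.24 over the 9 genes.

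Other enzymes that make NADPH or NADP gave 1 rise among 10 tested of 13, and the other 9 did not pass, where 4.12% of all tested genes rose. MTHFD2, the mitochondrial folate dehydrogenase, which works mainly with NAD, read 13.89, 13.72 and 13.59 in siGNE arrays, against 12.81, 12.63 and 12.61 in control arrays. It rose by 1.05 (SE 0.08), or 2.07-fold, with the block (limma adjusted p 0.0200). MTHFD1, its cytosolic counterpart, differed by -0.35, MTHFD2L by -0.43 and the NAD kinase NADK by 0.28, without passing (limma adjusted p 0.0852, 0.0927 and 0.121 with the block). The mitochondrial malic enzymes, picked after their values were seen, did not pass: ME2 differed by 0.03 and ME3 by -0.22 (limma adjusted p 0.895 and 0.175 with the block).

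Of the reductases that use NADPH, 22 of 27 were tested, and 8 rose and 2 fell with the block, where 4.12% of all tested genes rose and 5.74% fell. AKR1C1, AKR1C2 and AKR1C3, aldo-keto reductases of steroids and aldehydes, rose by 2.35, 2.45 and 1.77 and passed without the block too (limma adjusted p 0.0291, 0.0291 and 0.0406). For AKR1C1 and AKR1C2 every tested probe set has a name ending in _x_at, which marks cross-hybridisation, and such probes can pick up either of these near-identical genes. PTGR1, a reductase of prostaglandins and reactive alkenals, rose by 1.45 with the block (limma adjusted p 0.0171). The falls, named after their values were seen, were those of the sterol reductase TM7SF2 (-0.55) and the sphingolipid enzyme KDSR (-0.59), with limma adjusted p of 0.0440 and 0.0305 with the block. The list's median was 0.09, and 12 of its genes did not pass.

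None of the 15 tested citrate, isocitrate and malate enzymes and transporters passed in limma with or without the block. Of all tested genes, 4.12% rose and 5.74% fell with the block, and 0.046% and 0% did so without it. Without the block 1 of the 15 had an unadjusted limma p under 0.05, as did 1757 of all 10862 tested genes. The differences of the 15 ran from -0.31 to 0.27. SLC25A11, the mitochondrial oxoglutarate carrier, differed by -0.31, IDH3B, a subunit of the NAD-dependent isocitrate dehydrogenase, by 0.27, MDH2 by -0.27 and PC by -0.28 (limma adjusted p 0.0960 to 0.175 with the block). None of 13 tested upper glycolysis genes passed in either limma fit, and 0 had an unadjusted p under 0.05 without the block, beside the same values for all tested genes. PFKFB2 differed by 0.50, TPI1 by -0.24, PFKP by -0.21 and HK2 by -0.24 (limma adjusted p 0.110 to 0.230 with the block). With so few genes, 0 calls in these lists is not far from the shares over all tested genes. The median difference of each list was close to 0, at 0.03 and 0.02.

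**Figure D3:**
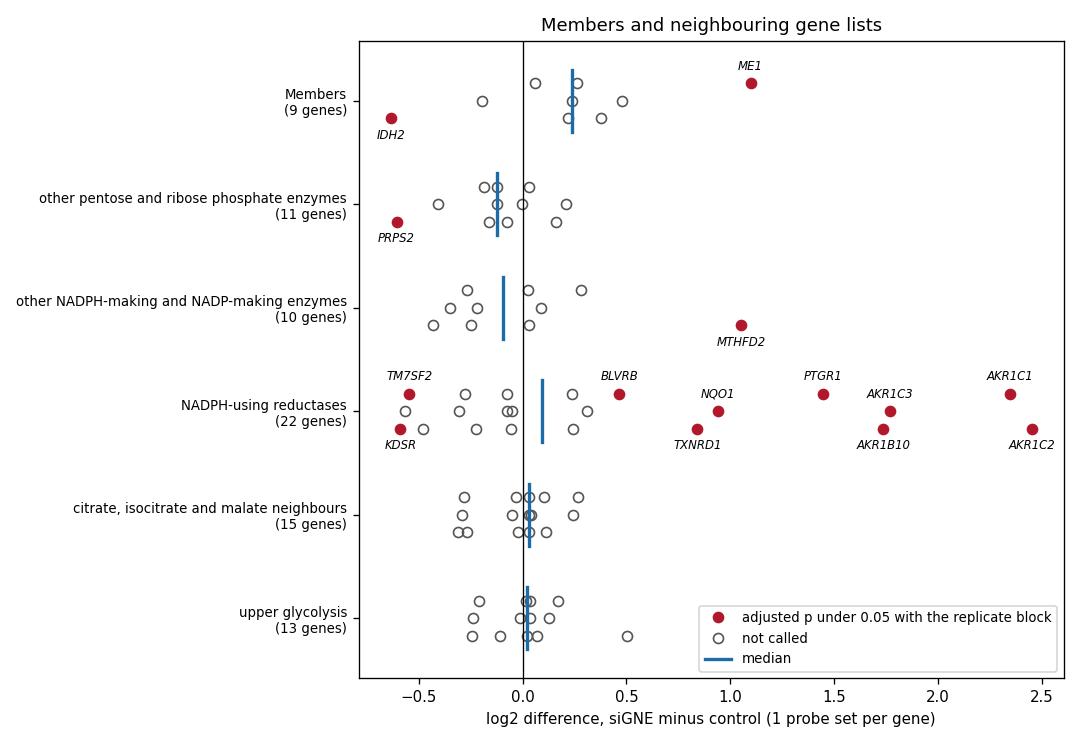
Log2 difference, siGNE minus control, of the 9 member genes and of the tested genes of 5 neighbouring lists, 1 probe set per gene. Filled red points passed in limma with the replicate block and blue bars mark medians. ME1 stands at 1.10, apart from the other members. MTHFD2, which works mainly with NAD, stands at 1.05, apart from the rest of its list. The citrate and glycolysis lists lie around 0.

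The genes whose 3 pair differences were closest to those of ME1 were PSPH, the phosphatase that completes serine synthesis, the transcription factor STAT4 and YARS1, the cytosolic tyrosyl-tRNA synthetase. Their root mean square distances from ME1 over the 3 pairs were 0.04, 0.05 and 0.05 on the log2 scale, and 7 of 10853 other tested genes lay within 0.1. For IDH2 the closest were MANEA, SLFN13 and GATD3, with distances of 0.02 each, and 80 genes lay within 0.1.

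Leaving out both arrays of 1 pair ended every call with the block, for the members and for all probe sets, in fits with 1 residual degree of freedom, and testing all probe sets without the limit on low values did so too (limma adjusted p 0.0706 for the brighter ME1 probe set, 0.141 for the bright IDH2 one and 0.155 for the dimmest TKT one). The labels do not tell if a group's arrays stand for separate cultures. The p-values then cover only the spread among these samples, which may be technical.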

How the data were processed

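Per the labels, 3 siGNE and 3 control Capan-1 samples were hybridised as biotinylated cRNA made from 300 ng of total RNA. The authors' deposited table gives log2 values, made with GCRMA per the submitters' processing notes, whose version and chip definition were not found there. The values run from 0.612 to 16.3, which gave the scale. No re-normalization was applied, and arrays have no read depth, so their number limits the precision.

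Of 54675 probe sets, 41097 had 1 gene in the platform annotation, 1801 several and 11777 none. For 41043 of the 41097 the gene was found in the RefSeq table (GRCh38.p14), used for names. limma 3.58.1 in R 4.3.3 (lmFit, eBayes) was fitted over 22085 probe sets with a mean above 4, without 62 control probe sets, with Benjamini-Hochberg adjustment over all of them and calls at an adjusted p under 0.05. The scripts were tested on simulated data. The fit without the pair number left 4 residual degrees of freedom and the fit with it as a replicate block 2. Deviations from the group means correlated at 0.58, 0.71 and 0.83 between arrays of the same number and at -0.64 to 0.17 between different numbers, so the numbers were taken to pair the arrays.

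Lists used 1 probe set per gene, the brightest tested one whose name does not end in _x_at, or the brightest of these where a gene had no other tested one, as for AKR1C1 and AKR1C2. The genes named are all members and GNE, up to 4 of each list by the smallest unadjusted p with the block plus any called without it, and the 3 genes with the closest pair differences to the member with the smallest p in each direction. Exceptions are marked. The members and lists were chosen with earlier results of these data known. Listed genes without a value are not analysed here. Alternatives were the block, other limits on low values, a floor, array weights, median centring, trended with robust variances, quantile normalization, a looser threshold, averaged probe sets and left-out arrays. Upstream sequences are RefSeq's, and their strand was checked on 2767 overlapping windows of opposite strands.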

Additional observations from a re-analysis of the deposited data

How the results depend on the processing

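Every tested member probe set kept the direction of its difference under the alternatives run, except the dim PGLS probe set, which differed by -0.21 without siGNE array 2 and by -0.03 without control array 1, in a range of -0.21 to 0.43 over the arrays left out. Some sizes without a call moved by over 1.5 times when 1 array was left out. PGD was at 0.07 without siGNE array 3 and 0.34 without control array 3, and TALDO1 at 0.14 without siGNE array 2 and 0.16 without control array 3. Without control array 1 the bright IDH1 probe sets were at 0.28 and 0.22, and without siGNE array 3 the TKT probe set prone to cross-hybridisation was at 0.24. The bright PGLS probe sets ranged from -0.32 to -0.11 and from -0.31 to -0.09, the dim IDH1 one from 0.03 to 0.34 and RPIA from 0.01 to 0.13. No member probe set called with the block moved by as much. The replicate block alone took the calls over all probe sets to 913 higher and 1182 lower, where the fit without it gave 9 and 0, and the member calls to 3 higher and 2 lower. The other alternatives that moved these counts were chosen after seeing the data where they join the block with another setting. With the block they gave 2068 and 2755 calls at an adjusted p under 0.1 (members 7 and 2), 1288 and 1388 after median centring (members 4 and 2), 1242 and 1404 after quantile normalization (4 and 2), 928 and 1221 with a floor at 4 (4 and 2) and 1441 and 1916 with trended and robust variances (7 and 2). The bright IDH1 probe set joined the calls in these, with adjusted p from 0.0153 to 0.0492 under the settings at 0.05. With the block and no limit on low values 0 were called. Without the block, calls were 121 higher and 98 lower at an adjusted p under 0.1, 142 and 134 with array weights (members 1 and 0), 29 and 6 above a mean of 6, 15 and 0 after median centring, 19 and 1 after quantile normalization, 35 and 9 with trended and robust variances and 2 and 1 with no limit on low values. Leaving out any array, or any pair under the block, gave 0 calls over all probe sets and among the reductases. NADPH-using reductases that rose numbered 3 without the block, 5 at 0.1 or with array weights, 0 with no limit on low values, 8 under the block and 9 under the block at 0.1. Those that fell under the block numbered 2, or 4 at 0.1, 3 with averaged probe sets or trended variances and 1 after quantile normalization. MTHFD2 gave 1 rise and PRPS2 1 fall in their lists under the block, and the list of MTHFD2 gave 1 rise without it at 0.1, with array weights and with trended variances. At 0.1 with the block 2 other genes of the MTHFD2 list and 1 of the citrate list were also lower. So were 1 other gene of the MTHFD2 list and 1 of upper glycolysis with trended variances. The GNE difference passed with the block at -1.88, at -1.86 after quantile normalization and at -1.84 after median centring. The number of arrays limits the precision, and the cause of these moves was not tested.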
